A study of Rattus norvegicus with 20 samples.

Results

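The expression of 41 genes of cell division and DNA replication was followed in rat liver after short exposure to triphenyl phosphate, an organophosphate added to plastics to soften them and to slow burning. They were chosen by symbol, with earlier results of these data known: 11 genes of DNA replication, 3 of entry into S phase and 27 of mitosis. On the arrays 39 of them were measured, out of 14217 genes in all. Each was read by its probe set (the group of probes that reads 1 transcript) with the highest mean over 20 arrays. Rrm2, the small subunit of ribonucleotide reductase, is left out because its probe sets are annotated to more than 1 gene, and Tpx2, a spindle assembly factor, had no probe set annotated to it.

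The animals were male Harlan Sprague Dawley rats given the compound in corn oil by oral gavage, once daily for 4 days, and liver from the left lobe was taken on day 5. The vehicle group (corn oil, 0 mg/kg) held 5 arrays, and the groups at 55, 110, 220, 440 and 881 mg/kg held 3 arrays each. The sample labels give the dose below the highest as 440 mg/kg, 1 mg/kg less than the design text, and the treatment text describes groups of 3 rats only. No age is stated for the rats in the labels. Nothing in the labels says that arrays came from different animals, so p-values reflect only how far these samples spread, some of which may be technical, and the number of arrays limits their precision. Values are log2 expression, so a difference of 1 is a 2-fold change in signal.

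Most cells of an adult liver rest outside the cell cycle and can re-enter it. On entry, D-type and E-type cyclins and their kinases release E2F factors, which switch on genes for copying DNA, among them the Mcm helicase, the sliding clamp Pcna and the enzymes that make deoxynucleotides. Later in the cycle B-Myb, FoxM1 and the MuvB complex switch on the genes of mitosis, whose products condense chromosomes, build the spindle, hold the cell at the spindle checkpoint and divide it. The replication and the mitotic genes therefore mark successive stages of one process.

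At 881 mg/kg, 18 of the 39 measured members rose and 0 fell. Mki67, the marker protein of cycling cells, rose 3.20-fold, Ect2, which drives cleavage of the cell, 2.92-fold, and Topbp1, which helps to fire replication origins and to signal DNA damage, 2.71-fold. The median log2 change was 0.65 over the members and 0.00 over all genes. "Rose" and "fell" mean an adjusted p under 0.05 in limma's moderated test, a linear model of the 6 dose groups with Benjamini-Hochberg adjustment over all genes. Over all 14217 genes, 12.7% rose and 6.73% fell. By unadjusted p under 0.05, 29 of the 39 members were higher and 1 was lower, against 2820 and 1926 of all 14217 genes. In whole liver, more cells of a type and more RNA per cell cannot be told apart.

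Among all genes, 1810 rose and 957 fell at 881 mg/kg. With each array centred on the median of all its probe sets these counts were 2268 and 684, and 23 members rose. With arrays centred on the median of the genes, 1490 rose and 1345 fell, and 15 members rose. In each of these settings 0 members fell.

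On 1 array, signal stood apart from the rest. On 881 mg/kg replicate 2 the 3' end of the Gapdh control transcript read 5.24 above its 5' end, against 0.81 to 1.64 on the other arrays, and the array's median correlation with the others was 0.980. The same difference was 3.47 for the beta-actin control, the highest of the 20 arrays, and 1.47 for the hexokinase control, the lowest of the 20. Without it, 29 of 39 members rose and 0 fell, with a median change of 1.04, while over all genes 7.62% rose and 3.93% fell. Of the 18 members called with all arrays, 17 were among these 29 and Foxm1 was not (adjusted p = 0.0769). Without 881 mg/kg replicate 1 or without replicate 3, 7 members rose in each case: Mcm2, Mcm4, Rrm1, Topbp1, Kif11 and Mki67 in both, with Mad2l1 in the former and Ttk in the latter. The other members called with all arrays lost their call in these fits. Leaving out vehicle replicates 1 to 5 in turn gave 13, 17, 17, 15 and 21. Some members lost their call without a vehicle array too. Over all 8 fits that left out 1 array, the call was lost in 6 for Racgap1, 5 each for Foxm1 and Birc5, 4 for Ccna2 and 3 for Ect2. The 6 genes called both without 881 mg/kg replicate 1 and without replicate 3 rose in every one of these 8 fits. Of all 14217 genes, the 8 fits called from 1643 (without 881 mg/kg replicate 2) to 2725 (without replicate 3), rising and falling together. The 7 of 39 members that rose without replicate 3 therefore stand beside 2725 of 14217 genes called in either direction. Changes at 881 mg/kg are therefore given below with all arrays and, where a called member moves by over 1.5 times or a call changes, without replicate 2.

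**Figure D1:**
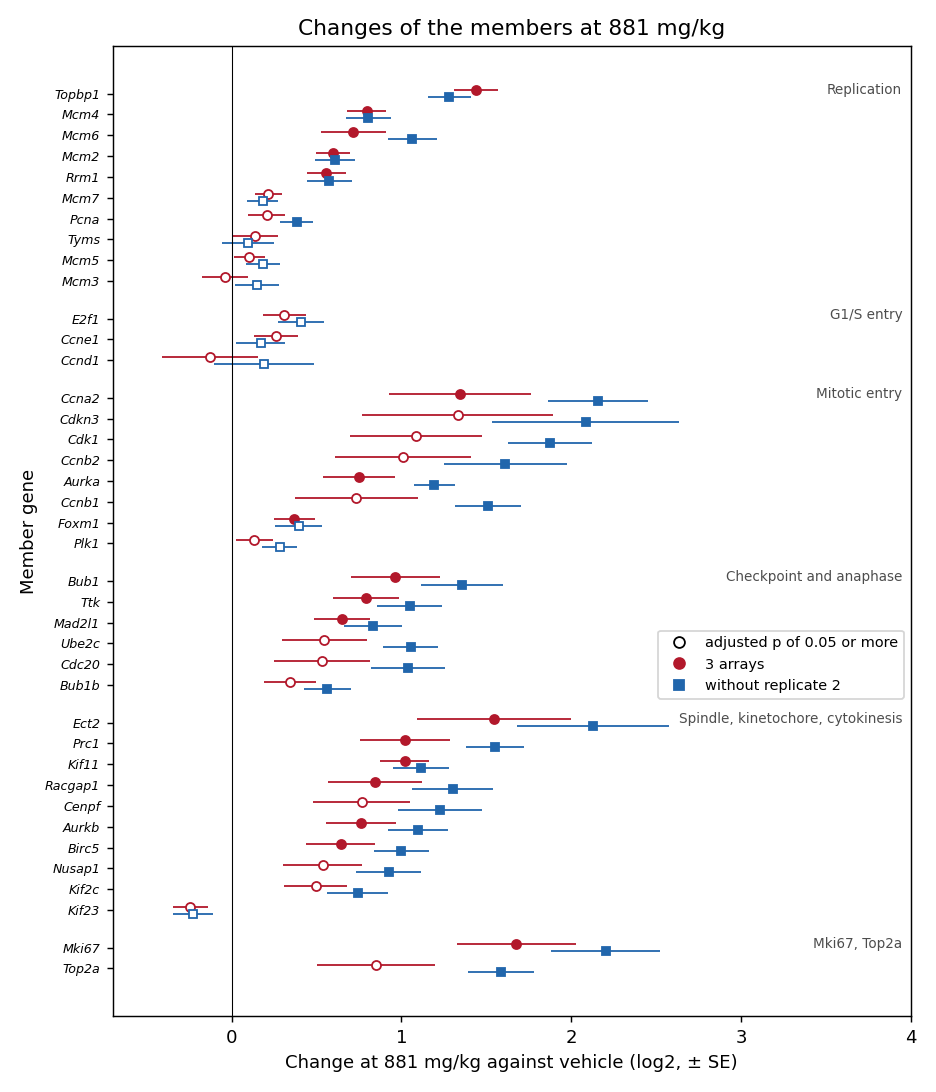
Log2 change at 881 mg/kg against vehicle (horizontal axis, with its SE) for the 39 measured members, grouped by role; circles use all 3 arrays, squares leave out replicate 2, and filled symbols have an adjusted p under 0.05. Most mitotic members move to the right when replicate 2 is left out, whereas Topbp1, Mcm4, Mcm2 and Rrm1 stay close to where they were.

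To show the letters counted below, 4 start regions are printed: those of the 2 replication and the 2 mitosis members with the largest increase among those called that have an entry in the RefSeq promoter table (assembly GRCr8). Capitals mark matches, on either strand, to the E2F site letters TTTGGCGC, TTTCGCGC or TTCCCGCC, the cell cycle homology region (CHR) letters TTTGAA or TTCGAA, and the CCAAT box letters CCAAT. Each window runs 5' to 3' on the gene's strand, with 10 bases after the annotated start. Topbp1 is at chr8:112766541-112766800 (+), Mcm6 at chr13:42404343-42404602 (-), Mki67 at chr1:199952584-199952843 (-) and Ect2 at chr2:111966617-111966876 (-).
Topbp1: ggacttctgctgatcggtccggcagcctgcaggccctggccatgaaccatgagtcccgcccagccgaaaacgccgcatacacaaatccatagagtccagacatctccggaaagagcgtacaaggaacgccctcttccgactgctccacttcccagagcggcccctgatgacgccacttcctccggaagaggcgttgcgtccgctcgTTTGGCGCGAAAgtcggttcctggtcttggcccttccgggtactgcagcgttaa
Mcm6: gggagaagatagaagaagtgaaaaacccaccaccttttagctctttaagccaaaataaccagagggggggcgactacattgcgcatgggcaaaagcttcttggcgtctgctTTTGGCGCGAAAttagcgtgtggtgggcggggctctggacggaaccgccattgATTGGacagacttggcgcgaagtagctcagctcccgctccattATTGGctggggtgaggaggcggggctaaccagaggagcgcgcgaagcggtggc
Mki67: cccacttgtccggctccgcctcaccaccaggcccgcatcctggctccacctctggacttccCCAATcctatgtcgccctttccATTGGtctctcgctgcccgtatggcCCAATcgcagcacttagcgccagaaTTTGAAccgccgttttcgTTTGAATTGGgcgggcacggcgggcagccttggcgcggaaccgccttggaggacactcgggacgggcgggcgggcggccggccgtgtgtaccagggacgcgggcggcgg
Ect2: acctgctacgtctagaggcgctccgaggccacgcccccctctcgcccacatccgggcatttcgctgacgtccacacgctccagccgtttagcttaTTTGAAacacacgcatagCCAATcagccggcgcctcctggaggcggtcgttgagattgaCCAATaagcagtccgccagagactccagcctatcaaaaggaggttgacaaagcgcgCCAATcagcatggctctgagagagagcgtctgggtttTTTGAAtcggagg
In Topbp1 and in Mcm6 the capitals TTTGGCGCGAAA are 2 E2F matches on opposite strands that overlap, with their first base at position -44 from the start in Topbp1 and -139 in Mcm6. Mcm6 also holds 2 CCAAT matches. Mki67 holds 2 CHR and 4 CCAAT matches, of which a neighbouring pair shares 1 base, and Ect2 holds 2 CHR and 3 CCAAT matches.

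Of the 41 members, 31 had a window in the table, and 10 had no entry: Ccna2, Ccnd1, E2f1, Foxm1, Ube2c, Racgap1, Tpx2, Rrm2, Aurkb and Mcm4. In windows from 250 bases before to 50 after the start, an E2F match was present in 8 of 9 replication members, 2 of 21 mitosis members and 2.83% of 27457 genes. A CHR match was present in 16 of 21 mitosis members, 3 of 9 replication members and 19.5% of all genes. The CCAAT letters were in 16 of 21 mitosis members, 6 of 9 replication members and 37.7% of all genes. A match describes letters in a window and says nothing of binding in these livers.

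Topbp1 had the largest change of the replication members at 881 mg/kg. On vehicle replicates 1 to 5 it read 7.46, 7.11, 7.44, 7.17 and 7.43, and at 881 mg/kg 8.62, 9.07 and 8.59 on replicates 1 to 3; single-array values are given in this order throughout. Every dosed array lay above every vehicle array, and replicate 2 was the highest. The change was 1.44 ± 0.13 (SE, n = 3 and 5, adjusted p = 1.31e-06), and 1.28 without replicate 2. Another probe set of Topbp1 changed by 0.21 (adjusted p = 0.296).

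Of the 6 subunits of the Mcm helicase, which unwinds DNA ahead of the replication fork, Mcm4, Mcm6 and Mcm2 rose. Mcm4 read 7.33, 7.25, 7.29, 7.27 and 7.37 in vehicle and 8.07, 8.08 and 8.15 at 881 mg/kg. The dosed arrays lay close together and above all vehicle arrays. Mcm4 rose by 0.80 ± 0.11 (adjusted p = 0.000120). Mcm2 read 6.44, 6.75, 6.64, 6.42 and 6.33 in vehicle against 6.99, 7.09 and 7.26, also with no overlap, a rise of 0.60 ± 0.10 (adjusted p = 0.000523). Mcm6 differed from both: it read 6.15, 6.26, 5.91, 5.71 and 6.04 in vehicle and 7.09, 6.04 and 7.07 at 881 mg/kg. Replicates 1 and 3 were above all vehicle arrays and replicate 2 was within them. Its rise of 0.72 ± 0.19 (adjusted p = 0.0126) was 1.06 without replicate 2, and it lost its call without replicate 1 or replicate 3 (highest adjusted p = 0.0748).

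Rrm1, the large subunit of ribonucleotide reductase, was the other replication member that rose, by 0.56 ± 0.11 (adjusted p = 0.00239), with all 3 arrays above all vehicle arrays. The remaining members of the class did not pass the test with all arrays. Their changes were 0.22 for Mcm7 (adjusted p = 0.0679), 0.21 for the clamp Pcna, 0.14 for the thymidylate synthase Tyms, 0.10 for Mcm5 and -0.04 for Mcm3. Pcna rose by 0.38 without replicate 2 (adjusted p = 0.0142). Mcm7 passed without vehicle replicate 3, which read higher than the other vehicle arrays (adjusted p = 0.0225). The sign of Mcm3 depended on the setting, from -0.18 to 0.15 over the fits that left out 1 array.

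The 3 members of entry into S phase did not pass the test at 881 mg/kg. Cyclin D1 (Ccnd1), which starts the cycle in response to growth signals, read 9.50, 10.83, 10.17, 10.09 and 10.32 in vehicle and 10.44, 9.42 and 10.30 at 881 mg/kg. The dosed arrays lay on both sides of the vehicle mean, and the change was -0.13 ± 0.28. Other probe sets of Ccnd1 changed by -0.05 and -0.27. Cyclin E1 (Ccne1), which partners Cdk2 at the start of S phase, read 6.39, 6.84, 7.04, 6.92 and 6.96 against 6.93, 7.28 and 7.07, a change of 0.26 ± 0.13 (adjusted p = 0.166). E2f1, a transcription factor of S phase genes, read 6.14, 6.45, 6.02, 6.00 and 6.22 against 6.46, 6.28 and 6.70, a change of 0.31 ± 0.13 (adjusted p = 0.0902). Dosed and vehicle arrays overlapped in all 3 genes.

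Mki67, a coat protein of mitotic chromosomes, and Top2a, the topoisomerase that untangles sister chromatids, were both high on 2 of the 3 arrays. Mki67 read 4.64, 5.12, 5.13, 4.87 and 5.97 in vehicle and 7.44, 5.77 and 7.27 at 881 mg/kg. Replicate 2 was below vehicle replicate 5, the highest vehicle array. Mki67 rose by 1.68 ± 0.35 (adjusted p = 0.00269), and by 2.20 without replicate 2. Top2a read 6.55, 6.33, 6.63, 6.38 and 6.96 in vehicle and 8.08, 5.95 and 8.23 at 881 mg/kg, with replicate 2 below every vehicle array. Its change of 0.85 ± 0.35 did not pass (adjusted p = 0.0932), and without replicate 2 it rose by 1.59 (adjusted p = 5.32e-05). Another probe set of Top2a changed by 0.38 with all arrays (adjusted p = 0.301, over all probe sets).

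Among the 8 genes of mitotic entry, 3 rose with all arrays, Ccna2, the kinase gene Aurka and the transcription factor gene Foxm1, and 6 rose without replicate 2. Cyclin A2 (Ccna2), which acts in S phase and at entry to mitosis, read 4.81, 5.32, 5.15, 4.96 and 5.73 in vehicle and 7.68, 4.92 and 7.03 at 881 mg/kg. Replicates 1 and 3 were above all vehicle arrays and replicate 2 was within them. Ccna2 rose by 1.35 ± 0.42 (adjusted p = 0.0295), and by 2.16 without replicate 2. The mitotic kinase Cdk1 read 6.31, 6.51, 6.13, 6.40 and 7.01 against 8.54, 5.98 and 8.15. Its replicate 2 was below every vehicle array, and its change of 1.08 ± 0.39 missed the threshold (adjusted p = 0.0572) but was 1.87 without that array (adjusted p = 0.000103).

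Cyclin B2 (Ccnb2), a partner of Cdk1, followed the same split between arrays. It read 6.74, 6.91, 6.37, 6.50 and 7.43 in vehicle and 8.65, 6.59 and 8.16 at 881 mg/kg, a change of 1.01 ± 0.40 (adjusted p = 0.0837) that was 1.61 without replicate 2 (adjusted p = 0.00740). Cdkn3, a phosphatase that acts on cyclin-dependent kinases, had the widest vehicle spread of these genes, 6.59, 6.77, 6.70, 7.17 and 8.11, against 9.73, 6.89 and 8.58. Its change was 1.33 ± 0.56 (adjusted p = 0.105), and 2.09 without replicate 2 (adjusted p = 0.0193). Aurka rose by 0.75 ± 0.21 (adjusted p = 0.0181), and by 1.19 without replicate 2. Foxm1 rose by 0.37 ± 0.12 (adjusted p = 0.0389), and its other probe set changed by -0.08 (adjusted p = 0.628, over all probe sets). Foxm1 was the 1 member of this group with all 3 dosed arrays above all vehicle arrays. Cyclin B1 (Ccnb1), the main mitotic cyclin, changed by 0.73 with all arrays and rose by 1.51 without replicate 2 (adjusted p = 7.67e-05). Another probe set of Ccnb1 changed by 1.10 with all arrays (adjusted p = 0.128, over all probe sets). The kinase gene Plk1 changed by 0.13, and by 0.28 without replicate 2 (adjusted p = 0.0802).

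Of the 6 genes of the spindle checkpoint and of anaphase, 3 rose with all arrays and 6 without replicate 2. Bub1, a checkpoint kinase at the kinetochore, read 4.71, 4.52, 4.29, 4.44 and 4.66 in vehicle and 6.10, 4.70 and 5.67 at 881 mg/kg. It rose by 0.96 ± 0.26 (adjusted p = 0.0153), and by 1.36 without replicate 2. Ttk, the kinase that recruits checkpoint proteins, read 4.33, 4.21, 4.36, 4.32 and 4.79 against 5.61, 4.68 and 5.29, a rise of 0.79 ± 0.19 (adjusted p = 0.00802). Another probe set of Ttk changed by -0.07 (adjusted p = 0.667). In Bub1 and in the Ttk values given here replicate 2 lay at the upper end of the vehicle arrays rather than below them.

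Mad2l1, which holds back the anaphase-promoting complex, read 5.78, 6.25, 5.53, 5.68 and 5.94 in vehicle and 6.58, 6.12 and 6.75 at 881 mg/kg, and rose by 0.65 ± 0.16 (adjusted p = 0.00921). Replicate 2 was within the vehicle range. Ube2c, the ubiquitin-conjugating enzyme of that complex, read 6.68, 6.65, 6.50, 6.70 and 7.03 against 7.90, 6.24 and 7.64. Its replicate 2 was below every vehicle array, and its change was 0.55 ± 0.25 (adjusted p = 0.136) with all arrays and 1.06 without it (adjusted p = 0.000402). Cdc20, the activator of the complex, changed by 0.53 and Bub1b, a checkpoint protein, by 0.34. Neither passed with all arrays, and without replicate 2 they rose by 1.04 and 0.56. Other probe sets of Cdc20 changed by 0.38, 0.16, 0.067 and 3.7e-05 with all arrays (lowest adjusted p = 0.338, over all probe sets).

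Of the 10 measured genes of the spindle, kinetochore and cytokinesis, 6 rose, and 9 rose without replicate 2. Ect2 read 5.54, 6.03, 6.11, 6.02 and 6.80 in vehicle and 8.45, 6.48 and 8.0 at 881 mg/kg, a rise of 1.55 ± 0.45 (adjusted p = 0.0216) that was 2.13 without replicate 2. Prc1, which bundles the microtubules of the central spindle, read 6.67, 6.61, 6.65, 6.61 and 7.05 against 8.45, 6.67 and 8.09, a rise of 1.02 ± 0.26 (adjusted p = 0.0111) that was 1.55 without replicate 2. Replicate 2 was within the vehicle range in both. Racgap1, a partner of Ect2 at the cleavage furrow, read 5.65, 5.90, 5.58, 5.71 and 5.97 in vehicle and 7.08, 5.69 and 7.05 at 881 mg/kg, and rose by 0.85 ± 0.28 (adjusted p = 0.0392), and by 1.30 without replicate 2. Its replicate 2, too, was within the vehicle range. Another probe set of Racgap1 changed by 0.10 (adjusted p = 0.601).

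Kif11, the motor that pushes spindle poles apart, was the exception among these genes. It read 5.40, 5.86, 5.70, 5.41 and 6.09 in vehicle and 6.76, 6.52 and 6.85 at 881 mg/kg, so replicate 2 too was above every vehicle array. It rose by 1.02 ± 0.15 (adjusted p = 0.000117), and by 1.11 without replicate 2. Another probe set of Kif11 changed by 0.09 (adjusted p = 0.720). Aurkb, the kinase of the chromosomal passenger complex, rose by 0.76 and its partner Birc5 (survivin) by 0.64, and without replicate 2 by 1.10 and 0.999. The kinetochore gene Cenpf (0.77, adjusted p = 0.0657), the spindle gene Nusap1 (0.54) and the microtubule depolymerase gene Kif2c (0.49) did not pass with all arrays. Without replicate 2 these 3 rose by 1.23, 0.92 and 0.74. Another probe set of Kif2c changed by 0.05 with all arrays (adjusted p = 0.751, over all probe sets).

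Kif23, a motor of the central spindle, depended on the probe set. The probe set that represents it changed by -0.24 ± 0.10 (adjusted p = 0.101), with all 3 arrays (5.49, 5.44 and 5.50) below all vehicle arrays (5.52 to 5.85). Its other probe set rose by 0.66 ± 0.15 (adjusted p = 0.00723, over all probe sets). No direction is therefore given for Kif23.

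**Figure D2:**
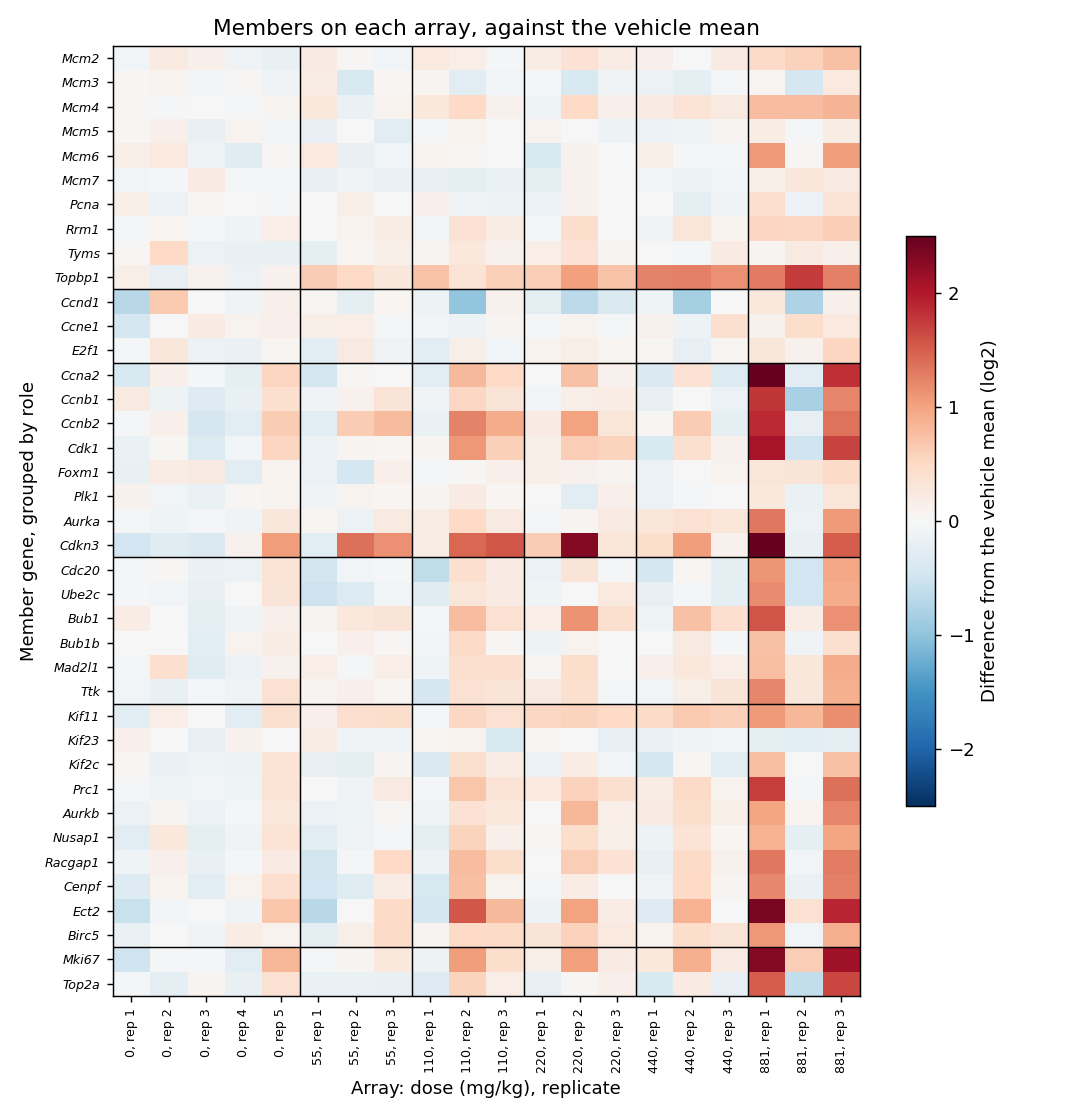
Difference of each of the 39 measured members (rows, grouped by role) from its vehicle mean on each of the 20 arrays (columns, by dose and replicate), in log2 units; red is higher and blue lower. The columns of 881 mg/kg replicates 1 and 3 are red over most mitotic rows, the column of replicate 2 is not, and the Topbp1 row darkens over all dosed columns.

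On 881 mg/kg replicate 2 the replication and the mitosis members lay at different levels relative to vehicle, which is given here as a description with no test of the difference. The median difference of the 26 mitosis members from their vehicle means was 1.21, -0.12 and 1.15 on 881 mg/kg replicates 1, 2 and 3. For the 10 replication members it was 0.45, 0.25 and 0.48, and for all genes 0.00, 0.02 and 0.00. Replicate 2 was the lowest of the 3 arrays for 25 of 26 mitosis members and for 5 of 10 replication members.

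Counted against the highest vehicle array, 25, 2 and 25 of the 26 mitosis members were above it on replicates 1, 2 and 3. Of the 10 replication members 7, 5 and 9 were above it, and of all 14217 genes 3717, 5235 and 3699. The 2 mitosis members above every vehicle array on replicate 2 were Kif11 and Foxm1. All 3 arrays were above all vehicle arrays for 4 of 10 replication members (Mcm2, Mcm4, Rrm1 and Topbp1), 2 of 26 mitosis members and 13.4% of all genes. They were below for 1 member, Kif23, and 8.31% of all genes. Whether the 3' to 5' difference of the Gapdh control on replicate 2 had a part in its mitotic values was not tested.

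**Figure D3:**
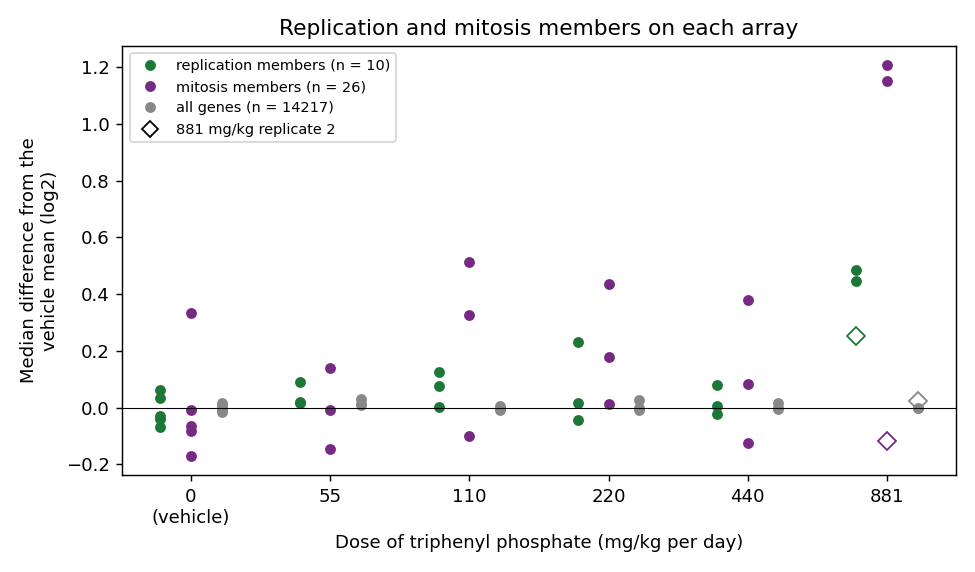
Median difference from the vehicle mean (vertical axis, log2) of 10 replication members, 26 mitosis members and all 14217 genes on each of the 20 arrays, by dose; open diamonds mark 881 mg/kg replicate 2. Mitosis members reach 1.21 and 1.15 on 2 arrays at 881 mg/kg and -0.12 on the third, while replication members lie between 0.25 and 0.48 on all 3.

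Put as changes, the replication members had a median of 0.39 with 5 of 10 rising, and the mitosis members a median of 0.76 with 13 of 26 rising. Without replicate 2 the medians were 0.48 and 1.15, with 6 of 10 and 23 of 26 rising. The mitosis members were also the class with the wider spread and the lower signal, with a median level of 6.20. That of the replication members was 7.40 and that of all genes 7.51. The median SD of the mitosis members among the vehicle arrays was 0.226, against 0.123 for the replication members and 0.123 for all genes. The median SE of the change at 881 mg/kg was 0.258, 0.115 and 0.102 in the same order. That SE draws on the spread within all groups, so it includes the low values on 881 mg/kg replicate 2.

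Mitosis members varied together between arrays of 1 group at the other doses too. On vehicle replicate 5, 20 of the 26 had their highest vehicle value, with a median difference of 0.34 from the vehicle mean. Replicate 2 was the highest array for 23 of 26 members at 110 mg/kg, 19 at 220 mg/kg and 22 at 440 mg/kg, with median differences from the vehicle mean of 0.51, 0.44 and 0.38. Replicate 1 was the lowest for 24, 18 and 19 of the 26 at the same doses. At 55 mg/kg replicate 1 was the lowest for 18 and replicate 3 the highest for 17. The replication members had no array that was highest for more than 5 of 10, apart from 220 mg/kg replicate 2, which was highest for 8.

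**Figure D4:**
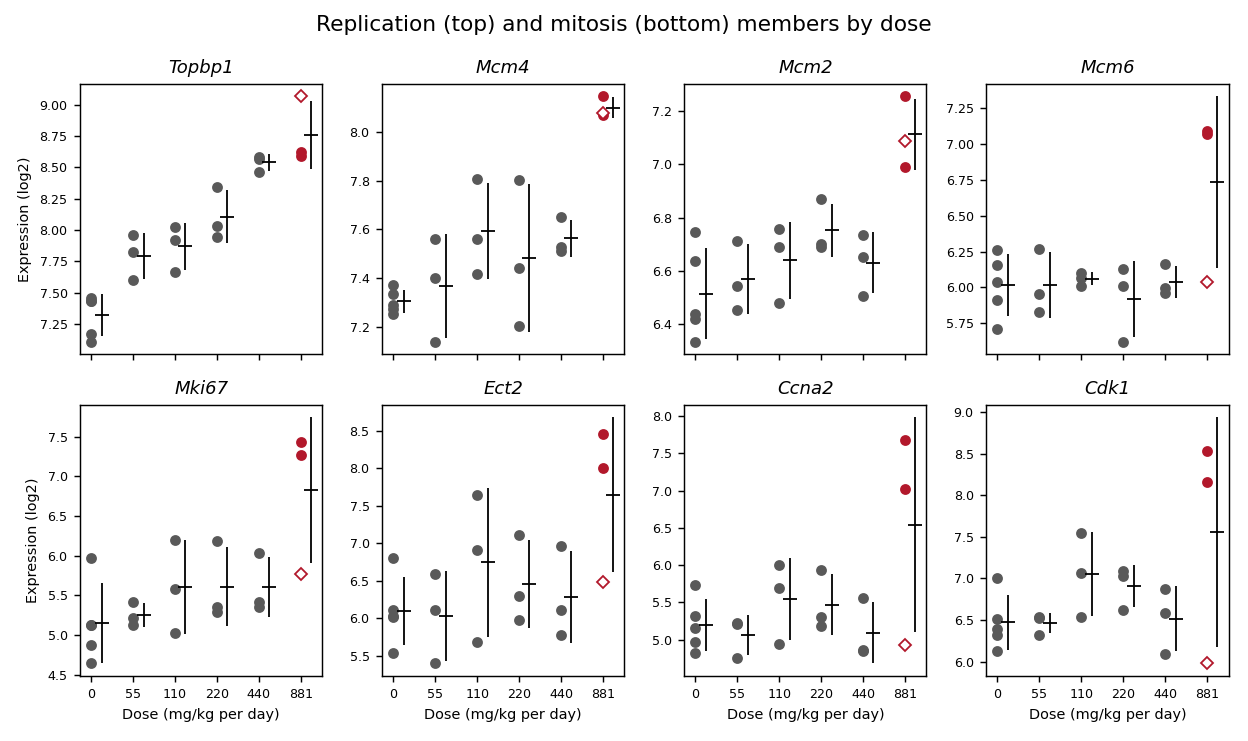
Log2 expression (vertical axes) of 4 replication members and 4 mitosis members on each array by dose (horizontal axes); grey points are arrays at 0 to 440 mg/kg, red symbols the 3 arrays at 881 mg/kg, open diamonds 881 mg/kg replicate 2, and black bars mean and SD of a group. Topbp1 climbs from 55 mg/kg on, Mcm4 and Mcm2 are high on all 3 arrays at 881 mg/kg, and Mcm6, Mki67, Ect2, Ccna2 and Cdk1 are high on 2 of them.

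Below 881 mg/kg, 2 members passed the test at any dose, Topbp1 and Kif11. At 55 mg/kg 0 of 39 rose and 0 fell in limma's test, where 1.93% of all genes rose and 0.879% fell. At an unadjusted p under 0.05, 2 of the 39 were higher and 0 lower there, against 1478 and 780 of all 14217 genes. At 110 mg/kg 1 rose, Topbp1 (all genes 2.36% up and 1.24% down). At an unadjusted p under 0.05, 2 members were higher and 1 was lower at that dose, against 1344 and 1031 of all genes. At 220 mg/kg it was again Topbp1 alone (2.25% and 1.18%). At 440 mg/kg Topbp1 and Kif11 rose (6.76% and 4.28%). At 220 and 440 mg/kg 0 members fell. At an unadjusted p under 0.05, 0 members were lower at these doses, against 937 and 1601 of all genes. Higher at that threshold were 4 and 3 members, against 1424 and 2034 of all genes.

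Topbp1 read 7.96, 7.82 and 7.60 at 55 mg/kg, 8.03, 7.67 and 7.92 at 110 mg/kg, 7.94, 8.34 and 8.03 at 220 mg/kg, and 8.57, 8.59 and 8.47 at 440 mg/kg. All 12 of these arrays were above all 5 vehicle arrays. Another, dimmer probe set of Topbp1 changed by 0.21 at 440 mg/kg (adjusted p = 0.390, over all probe sets). The changes of the probe set used were 0.47 ± 0.13 (adjusted p = 0.0519), 0.55 ± 0.13 (0.0213), 0.79 ± 0.13 (0.00204) and 1.22 ± 0.13 (6.30e-06). The call at 110 mg/kg was lost without vehicle replicate 2 or 4, and without replicate 1 or 3 of the 110 mg/kg group, which left 0 members rising at that dose.

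Kif11 read 6.16, 6.34 and 6.30 at 440 mg/kg, all above the vehicle arrays, and rose by 0.58 ± 0.15 (adjusted p = 0.0158). This rests on 1 probe set: another probe set of Kif11 changed by -0.008 at 440 mg/kg (adjusted p = 0.984, over all probe sets). Without 440 mg/kg replicate 2 or replicate 3 the call was lost, leaving Topbp1 as the 1 member that rose. At 220 mg/kg Kif11 read 6.21, 6.25 and 6.19, again above vehicle, and its change of 0.53 ± 0.15 just missed the threshold (adjusted p = 0.0543). Without vehicle replicate 5 it passed there, so 2 members rose.

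Other members whose arrays at a lower dose did not overlap with vehicle were few. Mcm4 was above all vehicle arrays at 110 and 440 mg/kg, and Birc5 at 220 mg/kg. Mcm7 was below them at 55 and 110 mg/kg, with changes of -0.14 and -0.20. Among all genes, all arrays were above vehicle for 9.33%, 7.62%, 7.95% and 12.8%, and below for 4.26%, 5.28%, 5.02% and 8.4%, at 55, 110, 220 and 440 mg/kg. The median change of the mitosis members was 0.01, 0.24, 0.20 and 0.14 at these doses, and that of the replication members 0.02, 0.08, 0.06 and 0.04.

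Between the highest doses, 881 against 440 mg/kg, 0 of 39 members rose and 0 fell in limma's test, where 0.134% of all genes rose and 0.127% fell. At an unadjusted p under 0.05, 24 members were higher and 0 lower, against 939 and 571 of all 14217 genes. The median difference was 0.48 over the members against 0.01 over all genes. Mcm2 (0.48 ± 0.11, adjusted p = 0.0816) and Mcm4 (0.54 ± 0.13, adjusted p = 0.0830) came nearest to the threshold. Without 881 mg/kg replicate 2, 14 members rose, 12 of mitosis and 2 of replication, and 0 fell, beside 0.528% of all genes that rose and 0.274% that fell.

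The 2 replication members called in that comparison were Mcm6 (1.04, adjusted p = 0.00395) and Pcna (0.49, adjusted p = 0.0356). The 12 mitosis members were Ccna2 (2.26, adjusted p = 0.00334), Mki67 (1.75), Top2a (1.71, adjusted p = 0.000858), Cdk1 (1.83), Ccnb1 (1.62), Prc1 (1.30), Cdc20 (1.24), Ube2c (1.21), Racgap1 (1.16), Kif2c (0.97), Ttk (0.91) and Aurka (0.87). With all arrays, every 881 mg/kg array was above every 440 mg/kg array for 9 members, Mcm2, Mcm4, Mcm7, Rrm1, Topbp1, E2f1, Foxm1, Mad2l1 and Kif11, and for 7.59% of all genes. For Kif23 every array was below, as for 5.56% of all genes.

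A trend over the 6 dose steps passed for 13 of 39 members, all upward, while 12.9% of all genes rose with dose and 8.81% fell. The fit includes the 881 mg/kg arrays, and a slope does not show that a gene climbed at each step. The median change of the mitosis members was 0.14 at 440 mg/kg and 0.76 at 881 mg/kg. The slopes were 0.28 ± 0.02 per step for Topbp1 (adjusted p = 2.75e-08), 0.26 ± 0.06 for Mki67, 0.17 ± 0.03 for Kif11, 0.16 for Prc1 and for Bub1, 0.13 for Aurkb and 0.12 for Mcm4 and Aurka. The other 5 were Ttk, Birc5, Mad2l1, Mcm2 and Rrm1, with slopes from 0.08 to 0.11. Without 881 mg/kg replicate 1 the number was 7 and without replicate 3 it was 8. At an unadjusted p under 0.05, 21 of the 39 members rose with dose and 1 fell, against 2726 and 2173 of all 14217 genes.

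Cell cycle genes outside the members were counted in 3 further lists. Over all genes 12.7% rose and 6.73% fell at 881 mg/kg, and 7.62% and 3.93% without replicate 2. Of 30 other replication genes measured, 14 rose and 1 fell at 881 mg/kg, with a median change of 0.29. The largest rises were in Rfc4, a subunit of the clamp loader (0.71 ± 0.12), Cdt1, which loads the helicase at origins (0.70 ± 0.12), Rpa3, a subunit of the single-strand binding protein (0.63 ± 0.09), Dut, which removes dUTP (0.62 ± 0.09), and Uhrf1, which guides maintenance methylation of new DNA (0.62 ± 0.11). All 3 arrays were above all vehicle arrays in each of the 5. Mcm10, an origin firing factor, fell by 0.43 (adjusted p = 0.0177) and was not called without replicate 2.

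Cdt1 read 5.16, 5.15, 5.05, 5.10 and 5.24 in vehicle and 5.49, 5.78 and 6.26 at 881 mg/kg. It was also higher than at 440 mg/kg, by 0.70 (adjusted p = 0.0276), and the 440 mg/kg arrays read 5.21, 5.08 and 5.13. Rfc4 read 7.22, 7.45, 7.18, 7.22 and 7.38 in vehicle and 7.93, 8.13 and 7.94 at 881 mg/kg, and had already risen at 440 mg/kg, by 0.40 (adjusted p = 0.0424). Replicate 2 was not the lowest array in either gene. Fen1 and Orc6 were the other replication genes called at 440 mg/kg: Fen1, the flap nuclease, rose by 0.44 and Orc6, an origin recognition subunit, by 0.32.

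Of 39 other mitosis genes measured, 16 rose and 1 fell at 881 mg/kg with all arrays (median change 0.50), and 29 rose and 0 fell without replicate 2 (median 0.61). The largest rises were in the kinetochore genes Spc25 (1.34 ± 0.26) and Spc24 (1.28 ± 0.23), the condensin gene Smc2 (1.20 ± 0.20), the mitotic kinase gene Pbk (1.07 ± 0.22) and Depdc1 (1.02 ± 0.25). Spc25 read 6.16, 6.64, 6.18, 6.45 and 6.79 in vehicle and 8.17, 6.97 and 8.22 at 881 mg/kg. Smc2 read 5.93, 5.52, 6.17, 6.02 and 6.16 in vehicle and 7.29, 6.94 and 7.25. In both, replicate 2 was the lowest of the 3 arrays but above all vehicle arrays. Cdc25b, a phosphatase that activates Cdk1, fell by 0.78 (adjusted p = 0.0181), and was not called without replicate 2.

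Of 27 measured G1 regulators and cell cycle inhibitors, 6 rose and 2 fell at 881 mg/kg, with a median change of 0.05. The share that fell was near the 6.73% of all genes, of which 12.7% rose. Cdkn1a, which encodes the cyclin-dependent kinase inhibitor p21, read 10.31, 10.28, 10.76, 10.61 and 9.61 in vehicle and 8.54, 8.09 and 8.52 at 881 mg/kg. It fell by 1.93 ± 0.22 (adjusted p = 1.21e-05) with no overlap. It had fallen at every lower dose as well, with changes of -2.24 ± 0.22, -2.11 ± 0.22, -1.89 ± 0.22 and -2.11 ± 0.22 at 55, 110, 220 and 440 mg/kg. All 15 dosed arrays, from 7.82 to 8.71, were below the lowest vehicle array. The fall of Cdkn1a was therefore present at 55 mg/kg, where 0 members passed the test.

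Myc, a transcription factor of cell growth, rose by 2.16 ± 0.34 at 881 mg/kg (adjusted p = 0.000281) and by 1.47 ± 0.34 at 110 mg/kg (adjusted p = 0.0214). It read 6.78, 6.82, 7.33, 7.25 and 7.93 in vehicle, 9.45, 8.74 and 7.88 at 110 mg/kg, and 8.49, 9.66 and 9.99 at 881 mg/kg. The 881 mg/kg arrays were all above vehicle. Wee1, the kinase that restrains Cdk1, rose by 0.67 ± 0.11 at 440 mg/kg and by 0.77 ± 0.11 at 881 mg/kg (adjusted p = 0.000459 and 7.08e-05). Wee1 lay between 6.60 and 7.11 on these 6 arrays, against 6.11 to 6.21 in vehicle.

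The other genes of this list that rose at 881 mg/kg were Rbl1, a relative of Rb1 (0.39 ± 0.10, adjusted p = 0.0133; named after its values were seen), Rb1, the pocket protein that holds E2F factors in check (0.58 ± 0.13), Ccng2, a cyclin linked to cell cycle exit (0.58 ± 0.19), and the E2F family member E2f5 (0.46 ± 0.13). The repressor gene E2f7 fell by 0.25 ± 0.08 (adjusted p = 0.0454). Without replicate 2 Rb1 and Rbl1 kept their call, and Ccng2 (adjusted p = 0.0655), E2f5 (0.114) and E2f7 (0.180) did not.

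**Figure D5:**
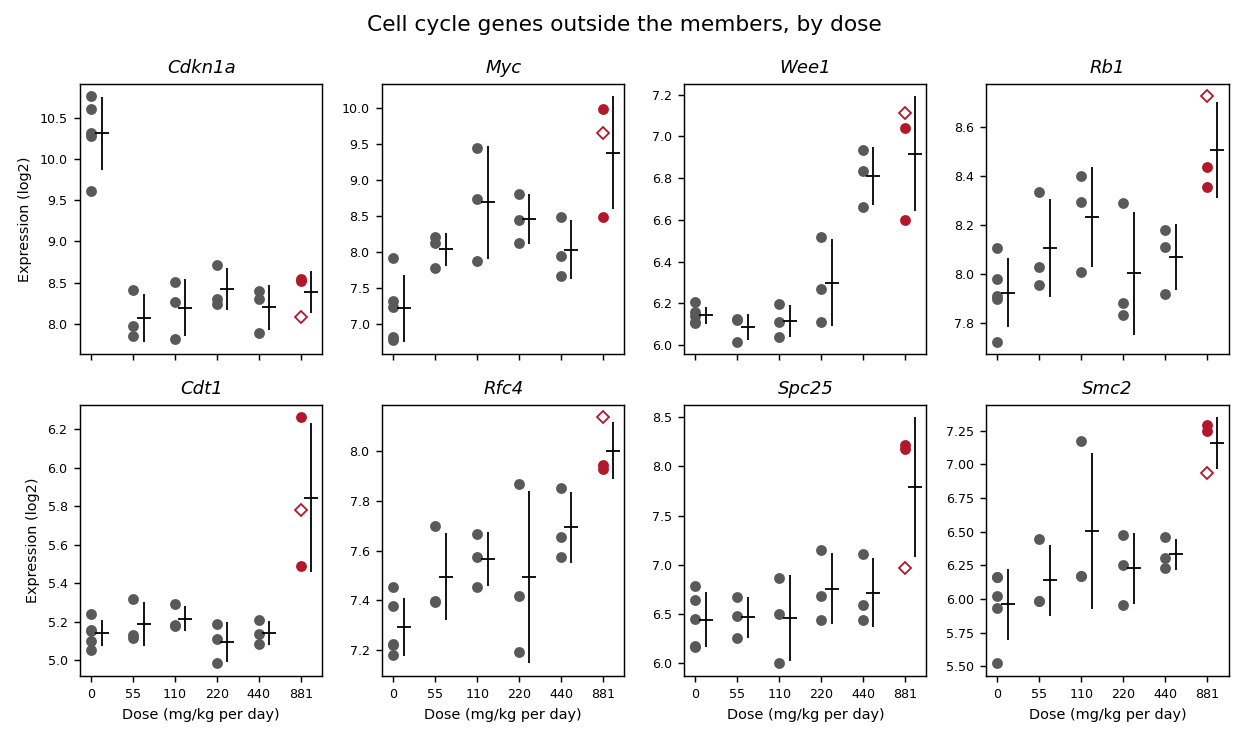
Log2 expression (vertical axes) of 8 cell cycle genes outside the members on each array by dose (horizontal axes), with symbols as in the plot of member values and black bars for mean and SD. Cdkn1a drops at 55 mg/kg and stays between 7.82 and 8.71 at all doses, Wee1 climbs at 440 mg/kg, and Cdt1 climbs at 881 mg/kg on all 3 arrays.

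The tissue label was checked against markers. Beside the counts below, 12.7% of all genes rose and 6.73% fell at 881 mg/kg, and 7.62% and 3.93% without replicate 2. Hepatocyte markers were among the most abundant genes, with Alb at the top of all genes in vehicle. The log2 of their summed signal was 17.1 to 17.2 in vehicle and 17.1 at 881 mg/kg. Of 6 hepatocyte markers measured, 1 rose and 2 fell at 881 mg/kg, with changes from -0.19 to 0.34. Without replicate 2, 1 rose and 0 fell. Of 9 Kupffer cell and macrophage markers measured, 8 fell at 881 mg/kg and 4 without replicate 2, and their summed signal went from 13.4 to 13.8 in vehicle to 12.5 to 13.2. Of 9 stellate cell markers 6 fell, of 6 endothelial markers 3, of 9 lymphocyte markers 3 and of 6 erythroid markers 2, and 0 rose. Without replicate 2 these counts were 2, 1, 1 and 2. Summed signal lay between 12.0 and 12.5 in vehicle and 11.3 and 11.9 at 881 mg/kg for stellate cells, and between 8.90 and 9.0 and 8.70 and 8.84 for lymphocytes. For endothelial cells it was 12.3 to 12.7 and 11.6 to 12.5, and for erythroid cells 12.5 to 13.4 and 10.2 to 11.9. Of 5 bile duct markers 1 rose, with a summed signal of 9.52 to 9.91 in vehicle and 10.2 to 10.8 at 881 mg/kg. The median change of the 5 was -0.02. Without replicate 2 the 1 that rose was Epcam. It read 9.23 in vehicle, against 5.20 to 6.57 for the other bile duct markers, so the sum mainly follows Epcam. The erythroid sum likewise mainly follows Hbb, at 12.9 in vehicle against 5.05 to 7.70 for the others. The median change of the 6 erythroid markers was -0.28. In the same way, the stellate sum mainly follows Col3a1, at 11.7 in vehicle against 6.07 to 9.61 for the others. Of the 9 stellate markers 2 had a change above 0, the highest 0.43, and their median change was -0.44. The part of any of these cell types in the rise of the members was not tested.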

How the data were processed

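Liver RNA was measured on 20 Affymetrix arrays, 1 per sample. The authors deposited log2 expression for every probe set; the submitters' processing notes name RMA as the method, with no version or settings. RMA equalises the distribution of signal between arrays, so differences in total RNA are removed, and it compresses low signals. That the scale is log2 was inferred from the range of the deposited values. Of 31099 probe sets, 57 controls were set aside. In GEO's platform annotation 20826 probe sets had 1 gene symbol; 436 with several symbols and 9780 without one were not used. Of the former, 20758 matched a RefSeq gene by gene ID (GRCr8, for names and promoters only).

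Groups came from the titles. The test was limma 3.58.1 (lmFit, eBayes; R 4.3.3), two-sided, over all arrays with no filter on level, and the trend used the dose step, 0 to 5, as 1 numeric term. The model was tested on simulated data. Tables and figures were made in Python 3.11.15 (NumPy 2.4.6, pandas 2.3.3, matplotlib 3.10.9). Of the members, 13 had more than 1 probe set. No pair of arrays shared more than 0.0225% of its values. Single-array values are given for the 4 members of each role with the largest change at 881 mg/kg, called or not, and for Mki67; members called at any other dose or between 881 and 440 mg/kg are named, as are up to 5 called genes per direction from each other list. Alternatives were a replicate block, centring, the mean of probe sets, a minimum mean of 5, a variance trend, array weights, fits of the compared groups only, and each array left out. The members, lists and rules were chosen with earlier results of these data known.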

Additional observations from a re-analysis of the deposited data

Results flagged for a closer look

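Among the 39 measured members, 4 had 1 vehicle array far from the other 4; about 1 in 20 such groups is set apart by chance. Mcm7 read 8.95 on vehicle replicate 3 and 8.67 to 8.72 on the others. On vehicle replicate 5, Aurka read 6.37 (others 5.98 to 6.06), Ttk 4.79 (4.21 to 4.36) and Prc1 7.05 (6.61 to 6.67). That array was the highest vehicle array for 20 of the 26 mitosis members. Aurka, Ttk and Prc1 are therefore not independent cases, and the share of 1 in 20 cannot be set against their number.

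Probe sets that do not represent their gene in the tests also passed at 881 mg/kg in a test over all probe sets: a probe set of Kif23 changed by 0.66, a pair of Mad2l1 by 0.44 and 0.57, and 1 of Nusap1 by 0.73. For Mad2l1 the direction is that of the probe set used. For Nusap1 the probe set used did not pass, and for Kif23 it changed by -0.24.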

How the results depend on the processing

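The counts of called genes and members, and the 39 member changes at 881 mg/kg, were recomputed under each alternative; settings not named here moved no count by over 1.5 times. Weighting arrays gave 842, 800, 1293 and 2511 called genes at 55, 110, 220 and 440 mg/kg and 174 between 881 and 440 mg/kg; members that rose were 1 at 55 (Topbp1), 2 at 220 (with Kif11), 31 at 881 mg/kg and 17 between 881 and 440 mg/kg. Fitting only the compared groups gave 1 member at 55, 4 at 440 (Topbp1, Kif11, Mcm4 and Aurka) and 11 at 881 mg/kg, with 1795 genes there and 0 between 881 and 440 mg/kg. Fewer arrays then estimate the spread. The mean of all probe sets left 0 members at 110 and 1 at 440 mg/kg, and a minimum mean of 5 gave 1 at 55 mg/kg (36 members and 12397 genes remain).

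The replicate numbers were not taken to pair the arrays: of 45 pairs of arrays with the same number, 28 had deviations correlated over 0.1, with a median r of 0.14 and a lowest of -0.12. Of 120 pairs with different numbers 13 were over 0.1, with a median r of -0.05, which is a hint from the data, not the design, that numbers may mark something shared. With the replicate number as a block, 0 members rose at 110 mg/kg, 2 at 220 mg/kg (322 genes) and 14 at 881 mg/kg.

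Centring on the median of the genes and testing every probe set were chosen after seeing the data. The former gave 1 member at 55 mg/kg (Topbp1) and 1 falling in the trend (Kif23), and the latter 16 rising at 881 mg/kg.

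Leaving out 1 array gave 127 to 391 called genes at 55 mg/kg (lowest without its replicate 2), 212 to 481 at 110 (replicate 1), 204 to 457 at 220 (replicate 2), 867 to 1434 at 440 (replicate 2) and 1643 to 2725 at 881 mg/kg (replicate 2), 1 to 114 between 881 and 440 mg/kg (without 440 mg/kg replicate 1 or 3, and without 881 mg/kg replicate 2), and 2415 to 3117 for the trend. Members that rose were 0 to 1 at 110, 1 to 2 at 220 and at 440, 7 to 29 at 881 mg/kg, 0 to 14 between 881 and 440 mg/kg and 7 to 19 for the trend, where 0 to 1 fell (Kif23, without vehicle replicate 3 or 110 mg/kg replicate 3). At 881 mg/kg the median of the replication members was 0.37 to 0.48 and that of the mitosis members 0.53 to 1.15.

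Of the uncalled members, 3 changed sign at 881 mg/kg. Mcm3 was 0.0071 with arrays centred on their medians, 0.083 with array weights and -0.18 to 0.15 over the fits that left out 1 array. Ccnd1 was 0.14 with array weights, 0.035 without vehicle replicate 2 and 0.19 without 881 mg/kg replicate 2, and lay between -0.32 and 0.19 over the fits that left out 1 array. Kif23 was 0.21 with the mean of its probe sets, which differ in direction. The cause was not tested for the other shifts. Signal over background was not analysed here.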
